A study of Homo sapiens with 4 samples.

Results

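The 10 genes described here encode enzymes that cut extracellular proteins and the inhibitors that hold those enzymes in check: the matrix metalloproteinases MMP1, MMP2, MMP3, MMP9, MMP10 and MMP14, the tissue inhibitors of metalloproteinases TIMP1, TIMP2 and TIMP3, and the cell-surface metallopeptidase MME (neprilysin, CD10). They were taken by name, as a chosen family, out of 22395 genes that have a probe set annotated to exactly 1 symbol. The choice was made with earlier results of these data known. All 10 were found, and in 6 of them the highest array had a log2 value of at least 5. RNA came from MCF10A, an immortalised, non-tumorigenic human mammary epithelial line, in 4 stably transfected forms. They carried Her2 together with mutant PIK3CA (PIK3CA-H1047R), mutant PIK3CA alone, Her2 alone, or LacZ, a bacterial enzyme gene used as the control. All 4 cell models grew untreated in the same SFIHE medium. The labels do not say whether a model is 1 clone or a pool, or which promoter drove the introduced genes. Each model was hybridised to 1 Affymetrix whole-transcript array, so no difference below has a replicate check or a p-value.

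Matrix metalloproteinases are zinc enzymes that are made as inactive precursors, mostly secreted, and activated by the removal of an N-terminal stretch. Collagenases such as MMP1 cut fibrillar collagen, stromelysins such as MMP3 and MMP10 cut a wide range of matrix proteins and can activate other precursors, and gelatinases such as MMP2 and MMP9 cut denatured and basement membrane collagen. MMP14 sits in the plasma membrane and activates the MMP2 precursor with the help of TIMP2. TIMP proteins block the active enzymes by binding the catalytic zinc. In the breast these proteins take part in branching and remodelling of the gland, and MME marks myoepithelial cells.

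ERBB2, the gene of Her2, did not follow the labels of the single-gene arrays. The probe set annotated to ERBB2 and to the microRNA gene MIR4728 read 7.39 on the array labelled Her2+mutant PIK3CA, 8.48 on the array labelled mutant PIK3CA, 4.29 on the array labelled Her2 and 5.96 on the array labelled LacZ. It was thus lowest on the array labelled Her2, 1.67 log2 units under the array labelled LacZ (difference -1.67). On the array labelled Her2+mutant PIK3CA the ERBB2 value was 1.43 above LacZ, in the direction of that label. PIK3CA was not analysed here. Every direction below therefore belongs to "the array labelled" with a group. Whether mutant PIK3CA and Her2 labels were swapped between these arrays was not tested. Under such a swap, each value given for the array labelled mutant PIK3CA would belong to Her2 and each value given for the array labelled Her2 to mutant PIK3CA, while departures from additivity would stay as they are. Medians over all 53617 probe sets were between 1.13 and 1.17 on the 4 arrays, and a gene with a value near these medians cannot be told from background. Of the basal mammary markers, KRT5 was high on every array (7.08 to 7.52). KRT14 was 1.96 higher on the array labelled Her2+mutant PIK3CA than on LacZ (3.43 against 1.47). Another 3 were lower there than on LacZ (CDH3 by a difference of -3.24, ITGB4 by -1.30 and EGFR by -0.94). At 2-fold, 1 of the 5 measured was higher and 2 were lower, against 6.3% and 4.27% of all genes. The median difference of the 5 measured was -0.94 and their summed linear level 624 against 1462. KRT17, KRT6A and TP63 were not analysed here. The epithelial cadherin CDH1 read 5.07 on the array labelled Her2+mutant PIK3CA, 9.13 on the array labelled mutant PIK3CA, 8.94 on the array labelled Her2 and 9.34 on the array labelled LacZ, and EPCAM differed by -2.22 between the arrays labelled Her2+mutant PIK3CA and LacZ. Of 4 pan-epithelial genes, these 2 were at least 2-fold lower in that comparison and 0 were higher (4.27% and 6.3% of all genes). The keratins KRT8 and KRT18 differed there by 0.01 and -0.27. KRT8 was 1.25 higher on the array labelled Her2 than on LacZ.

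Upstream sequences are shown for 3 members, because MMP10 and TIMP3 were both highest on the array labelled mutant PIK3CA while TIMP1 differed least between arrays. They are the 250 bases before the transcription start in RefSeq, build GRCh38.p14: MMP10 at chr11:102780629-102780878 on the minus strand, TIMP3 at chr22:32801455-32801704 on the plus strand and TIMP1 at chrX:47582186-47582435 on the plus strand. Each is printed 5′ to 3′, and capitals mark matches to the AP-1 element TGANTCA, the TATA box TATAAA or the GC box GGGCGG, searched on both strands.
MMP10: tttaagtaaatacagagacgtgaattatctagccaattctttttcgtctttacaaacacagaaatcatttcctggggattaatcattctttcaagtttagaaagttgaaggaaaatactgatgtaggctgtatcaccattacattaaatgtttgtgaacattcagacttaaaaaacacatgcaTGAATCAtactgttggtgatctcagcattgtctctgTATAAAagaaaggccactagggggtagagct
TIMP3: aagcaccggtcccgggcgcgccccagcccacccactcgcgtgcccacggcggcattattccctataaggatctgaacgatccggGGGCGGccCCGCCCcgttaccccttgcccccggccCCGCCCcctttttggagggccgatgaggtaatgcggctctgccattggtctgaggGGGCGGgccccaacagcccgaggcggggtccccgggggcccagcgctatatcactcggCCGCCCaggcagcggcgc
TIMP1: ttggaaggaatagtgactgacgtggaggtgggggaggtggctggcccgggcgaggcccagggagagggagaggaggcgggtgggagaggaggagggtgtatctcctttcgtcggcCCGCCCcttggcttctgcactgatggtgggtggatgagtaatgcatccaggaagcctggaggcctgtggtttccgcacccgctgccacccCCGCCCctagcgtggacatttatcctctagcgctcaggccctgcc

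The MMP10 sequence held 1 AP-1 match with the letters TGAATCA, beginning 67 bases before the start, and 1 TATA box beginning 31 bases before it. It held 0 GC boxes and 2 CpG dinucleotides, with a GC content of 34.4%. The TIMP3 sequence was of the opposite make-up, with 5 GC boxes, 26 CpG dinucleotides, a GC content of 72.4% and 0 matches to the other elements. TIMP1 lay between them with 2 GC boxes, 12 CpG dinucleotides and 64.8% GC. The AP-1 element was found in 6.57% of all 35116 RefSeq promoters over the same length, the TATA box in 10.7% and the GC box in 42.6%. MMP14 and MME also had sequences in that set, MME for 4 start sites, and none of these held the AP-1 element or the TATA box. MMP1, MMP2, MMP3, MMP9 and TIMP2 were not matched. A match describes these letters only.

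MMP1, the interstitial collagenase, had the largest excess over LacZ of all genes on the array labelled mutant PIK3CA. Its log2 value was 2.04 on the array labelled Her2+mutant PIK3CA, 7.27 on the array labelled mutant PIK3CA, 0.87 on the array labelled Her2 and 1.29 on the array labelled LacZ. The high value is thus found on a single array, and the Her2 and LacZ values lie near the array medians. The difference between the arrays labelled mutant PIK3CA and LacZ was 5.98 (63.3-fold), which ranks 1 among the 22395 genes, and as the LacZ value is near background the true ratio may be larger. The array labelled mutant PIK3CA exceeded the array labelled Her2 by 6.40, again rank 1. On the array labelled with both genes MMP1 was lower by 5.23 than on the array labelled mutant PIK3CA (difference -5.23, 37.5-fold), the second lowest of all genes. It was 1.17 above the array labelled Her2, where MMP1 lay under the array median of 1.16, so this size is not exact.

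**Figure D1:**
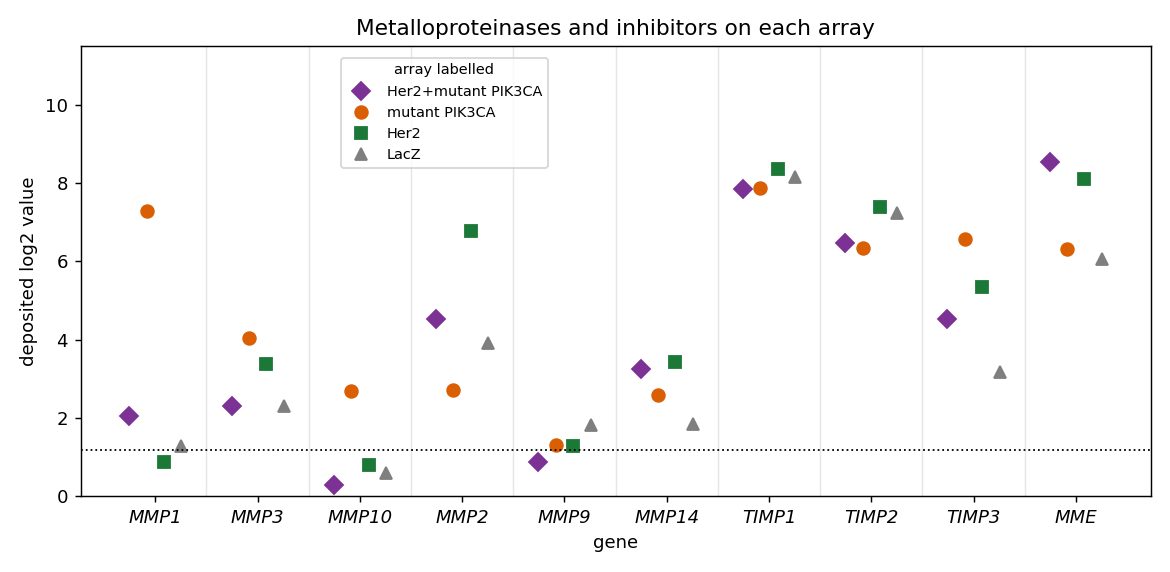
Deposited log2 values (vertical axis) of the 10 genes on the arrays labelled Her2+mutant PIK3CA, mutant PIK3CA, Her2 and LacZ, 1 point per array, with a dotted line at 1.17, the highest of the array medians over all probe sets. MMP1 stands far above the line on the array labelled mutant PIK3CA alone, MMP9 stays near it throughout, and TIMP1 varies least; heights of different genes are not comparable.

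The stromelysins MMP10 and MMP3 were highest on the same array. MMP10 read 0.28 on the array labelled Her2+mutant PIK3CA, 2.68 on the array labelled mutant PIK3CA, 0.80 on the array labelled Her2 and 0.60 on the array labelled LacZ. Apart from the 2.68, these values lie below the array medians, so only the excess on the array labelled mutant PIK3CA can be read (2.08 over LacZ, 1.88 over Her2). MMP3 read 2.29 on the array labelled Her2+mutant PIK3CA, 4.04 on the array labelled mutant PIK3CA, 3.38 on the array labelled Her2 and 2.31 on the array labelled LacZ. Both single-gene arrays were thus higher than LacZ for MMP3 (1.73 for mutant PIK3CA and 1.07 for Her2), whereas the array labelled with both genes differed from LacZ by -0.02. MMP3 and MMP10 are closely related in sequence, and whether their probe sets read each other's transcripts was not tested.

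MMP10, MMP1 and MMP3 are neighbours, in this order, in a run of 9 MMP genes on chromosome 11. The other 6 genes of the run (MMP7, MMP20, MMP27, MMP8, MMP12 and MMP13) read between 0.45 and 1.94 on all 4 arrays. None of these 6 differed at least 2-fold in any of the 6 comparisons between arrays. MMP7, matrilysin, at the end of the run, had the highest of these values, 1.94 on the array labelled mutant PIK3CA against 1.28 on the array labelled LacZ. MMP12, the macrophage elastase, which lies next to MMP3, read 0.46 on the array labelled mutant PIK3CA, against 0.54 on the array labelled LacZ. The high values on the array labelled mutant PIK3CA were thus measured at 3 adjoining MMP genes in the middle of the run, and the genes on either side read at most 1.94.

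**Figure D2:**
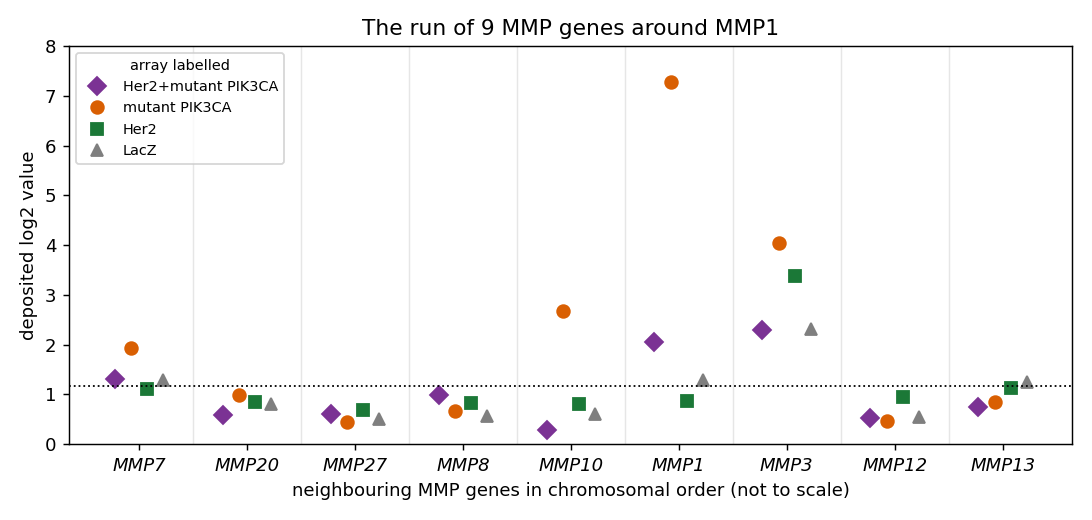
Deposited log2 values (vertical axis) of the 9 neighbouring MMP genes in chromosomal order (horizontal axis, distances not drawn to scale), 1 point per array, with the same dotted line at 1.17. Points of the array labelled mutant PIK3CA stand above those of the other arrays at MMP10, MMP1 and MMP3, while the other 6 genes stay between 0.45 and 1.94.

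The gelatinases behaved differently from each other. MMP2 read 4.53 on the array labelled Her2+mutant PIK3CA, 2.72 on the array labelled mutant PIK3CA, 6.78 on the array labelled Her2 and 3.92 on the array labelled LacZ. It was thus highest on the array labelled Her2 and lowest on the array labelled mutant PIK3CA, the reverse of MMP1. The array labelled mutant PIK3CA was 4.06 lower than the array labelled Her2 (difference -4.06, 16.7-fold), the third lowest of all genes in that comparison. The array labelled Her2 exceeded LacZ by 2.87 (7.29-fold), rank 8 among all genes. A second probe set of MMP2 read between 0.24 and 0.58 on the arrays and carried no such pattern, so the MMP2 result rests on 1 of its 2 probe sets. With the mean of both probe sets, the difference was -1.99 between the arrays labelled mutant PIK3CA and Her2 and 1.43 between the arrays labelled Her2 and LacZ. Other MMP2 differences fell short of 2-fold with that mean. They were mutant PIK3CA against LacZ (-0.56), Her2+mutant PIK3CA against mutant PIK3CA (0.73) and the departure from additivity described below (-0.70). Counts below that include MMP2 in these use the probe set with the higher mean. MMP9 read 0.88 on the array labelled Her2+mutant PIK3CA, 1.30 on the array labelled mutant PIK3CA, 1.27 on the array labelled Her2 and 1.82 on the array labelled LacZ, all close to the array medians. No change of MMP9 was detectable at this signal.

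MMP14 (MT1-MMP), the membrane-anchored enzyme, was lowest on the array labelled LacZ. It read 3.25 on the array labelled Her2+mutant PIK3CA, 2.59 on the array labelled mutant PIK3CA, 3.42 on the array labelled Her2 and 1.84 on the array labelled LacZ. The arrays labelled with Her2, alone or with mutant PIK3CA, were 1.58 and 1.41 above LacZ, and the array labelled mutant PIK3CA was 0.75 above it, short of 2-fold. The LacZ value of 1.84 lies near the array medians, so the sizes of these 3 differences are not exact. The arrays labelled Her2+mutant PIK3CA and Her2 differed by only -0.17.

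Among the inhibitors, TIMP3, which binds to the matrix after secretion, varied most, and TIMP1 and TIMP2 little. TIMP3 read 4.53 on the array labelled Her2+mutant PIK3CA, 6.57 on the array labelled mutant PIK3CA, 5.35 on the array labelled Her2 and 3.17 on the array labelled LacZ. All 3 oncogene arrays were thus above LacZ, by 1.36, 3.40 (10.6-fold, rank 14 of all genes) and 2.18 (4.53-fold, rank 26), and the array with both labels was the lowest of these 3. TIMP1 read 7.84 on the array labelled Her2+mutant PIK3CA, 7.87 on the array labelled mutant PIK3CA, 8.35 on the array labelled Her2 and 8.14 on the array labelled LacZ, a range of 0.51. TIMP2 read 6.47 on the array labelled Her2+mutant PIK3CA, 6.33 on the array labelled mutant PIK3CA, 7.39 on the array labelled Her2 and 7.22 on the array labelled LacZ. The arrays with the mutant PIK3CA label were thus the lower pair for TIMP2. Of its 6 comparisons only mutant PIK3CA against Her2 passed 2-fold, with a difference of -1.06.

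MME, which degrades small peptides at the cell surface, followed the Her2 label. It read 8.53 on the array labelled Her2+mutant PIK3CA, 6.32 on the array labelled mutant PIK3CA, 8.10 on the array labelled Her2 and 6.06 on the array labelled LacZ. The values form a high pair with the Her2 label and a low pair without it, and all lie far above the array medians. The difference was 2.21 (4.63-fold) between the arrays labelled Her2+mutant PIK3CA and mutant PIK3CA, and 2.05 (4.13-fold) between the arrays labelled Her2 and LacZ. With and without the Her2 label, the mutant PIK3CA label went with differences of 0.42 and 0.26.

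Counted over all 10 members at a log2 difference of 1 or more, 3 were at least 2-fold higher on the array labelled Her2+mutant PIK3CA than on the array labelled LacZ (MMP14, TIMP3 and MME) and 0 were lower. The background for these counts was 6.3% of all genes higher and 4.27% lower. On the array labelled mutant PIK3CA, 4 members were higher than on LacZ (MMP1, MMP3, MMP10 and TIMP3; background 2.71%) and 1 was lower (MMP2; background 1.91%). After median centring of the arrays that background was 2.23% higher and 2.47% lower, with the same member counts. On the array labelled Her2, 5 members were higher than on LacZ (MMP2, MMP3, MMP14, TIMP3 and MME; background 1.92%) and 0 lower (background 1.75%). These 3 comparisons share the LacZ array. Because the members were chosen with earlier results of these data known, member counts are not an independent test against the background. The median difference of the members was 0.30, 0.50 and 0.63 in these 3 comparisons, against -0.03, -0.0017 and -0.02 over all genes. Most genes lie near background, where little can differ: among the 4381 genes that reached 5 on at least 1 array, the shares were 13.9% higher and 11.1% lower for Her2+mutant PIK3CA, 7.44% and 4.18% for mutant PIK3CA, and 2.97% and 2.85% for Her2. Over all genes, 95% of the differences between the arrays labelled Her2 and LacZ lay between -0.90 and 0.92.

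Between the arrays labelled Her2+mutant PIK3CA and mutant PIK3CA, 2 members were higher (MMP2 and MME; background 5.09%) and 4 lower (MMP1, MMP3, MMP10 and TIMP3; background 3.46%). The 4 lower members are those that were higher on the array labelled mutant PIK3CA than on LacZ. Both counts rest on the same mutant PIK3CA array and are not separate results. Between the arrays labelled Her2+mutant PIK3CA and Her2, 1 was higher (MMP1, from a Her2 value near background; background 4.38%) and 2 were lower (MMP3 with a difference of -1.09 and MMP2 with -2.25; background 2.63%). Between the arrays labelled mutant PIK3CA and Her2, 3 were higher (MMP1, MMP10 and TIMP3; background 2.95%) and 3 lower (MMP2, TIMP2 and MME; background 2.55%). Member medians here were -0.23, -0.51 and -0.22, against -0.03, -0.01 and 0.02 over all genes. Among the 4381 genes that reached 5 on at least 1 array, larger shares passed 2-fold. In the same order, they were 10% higher and 9.02% lower, 9.47% and 6.12%, and 6.98% and 3.77%. TIMP1 and MMP9 passed 2-fold in none of the 6 comparisons.

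**Figure D3:**
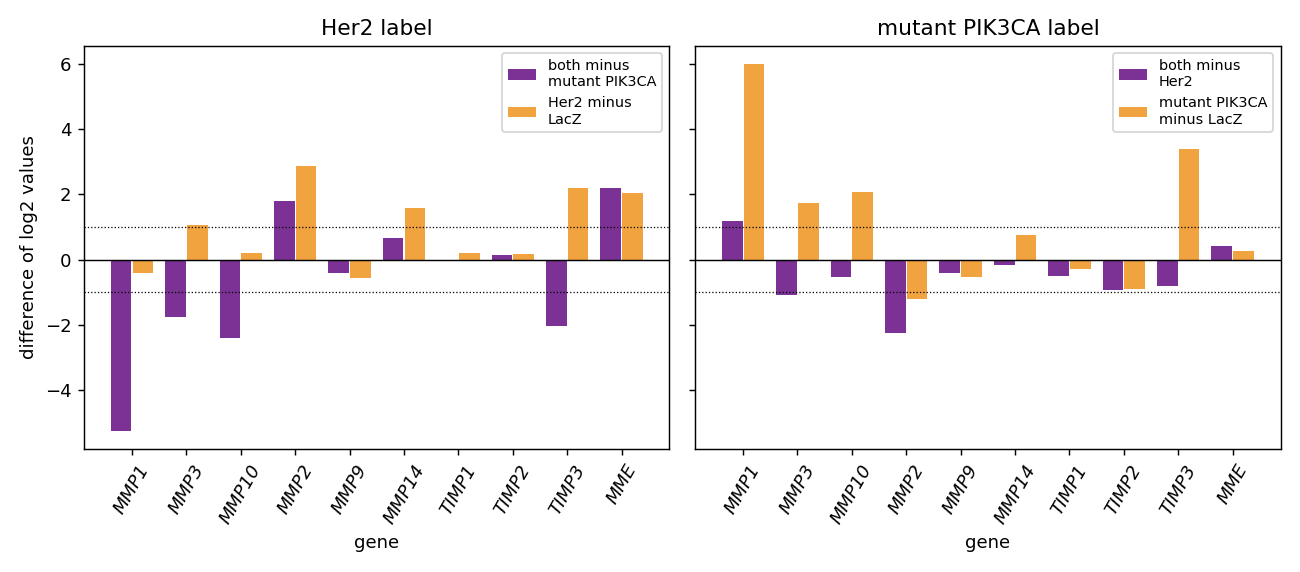
Differences of log2 values (vertical axis) for the 10 genes (horizontal axis). Left, the Her2 label with mutant PIK3CA (both minus mutant PIK3CA) and without it (Her2 minus LacZ); right, the mutant PIK3CA label with Her2 (both minus Her2) and without it (mutant PIK3CA minus LacZ); dotted lines mark 2-fold. MME shows nearly equal bars for the Her2 label (2.21 and 2.05), while those of TIMP3 point opposite ways (-2.04 and 2.18).

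The array labelled with both genes was then set against the sum of the single-gene differences. The departure from additivity (both minus mutant PIK3CA minus Her2 plus LacZ, in log2 units) was -4.81 for MMP1, -4.22 for TIMP3, -2.81 for MMP3, -2.60 for MMP10 and -1.05 for MMP2. On the arrays labelled Her2 and LacZ, MMP1 and MMP10 lay near background, as MMP10 did on the array labelled Her2+mutant PIK3CA, so the sizes of their departures are not exact. For MMP1 and MMP10 the departure largely restates the high value on the array labelled mutant PIK3CA. These 5 members lay at least 2-fold below the sum, where 4.5% of all genes did, and 0 lay as far above it, where 5.72% of all genes did. Among the 4381 genes that reached 5 on at least 1 array, these shares were 9.06% and 9.61%. With the limit of values near background, MMP1 had the lowest departure of all 22395 genes, and TIMP3 ranked 8 from the lowest. MMP14 departed by -0.92, with a LacZ value near background, and TIMP1 by -0.24. MME (0.16), MMP9 (0.12) and TIMP2 (-0.02) lay close to the sum, MMP9 with all values near background. The member median was -0.99, against -0.0026 over all genes.

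**Figure D4:**
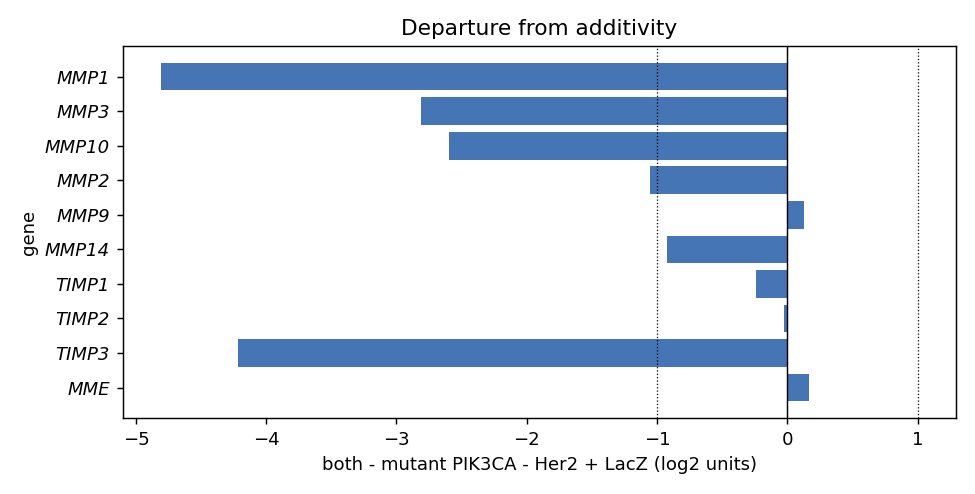
Departure from additivity in log2 units (horizontal axis) for the 10 genes (vertical axis), 1 bar per gene from 1 value on each of the 4 arrays; dotted lines mark 2-fold either way. MMP1 (-4.81) and TIMP3 (-4.22) reach farthest below 0, and MME, MMP9 and TIMP2 stay near it.

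The wider family was mostly near background. Of 12 other secreted MMPs and 5 other membrane-type MMPs, 0 reached 5 on any array and 0 differed at least 2-fold in any of the 6 comparisons. Of 4 other inhibitors, RECK, a membrane-anchored inhibitor, differed. It read 4.25 on the array labelled Her2+mutant PIK3CA, 1.34 on the array labelled mutant PIK3CA, 2.99 on the array labelled Her2 and 2.43 on the array labelled LacZ. It was thus lowest on the array labelled mutant PIK3CA, as MMP2 was, and highest on the array with both labels, where MMP2 was not. TIMP4, A2M and TFPI2 stayed between 0.59 and 1.36. Of 6 other genes of the neprilysin family, 0 differed at least 2-fold, and ECE1, the endothelin-converting enzyme, was the only member above 5 on any array (7.15, 6.82, 6.29 and 6.63 on the arrays labelled Her2+mutant PIK3CA, mutant PIK3CA, Her2 and LacZ).

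Among 16 ADAM and ADAMTS proteases, relatives with metalloproteinase domains, 5 were at least 2-fold higher on the array labelled Her2+mutant PIK3CA than on LacZ and 0 lower, against 6.3% and 4.27% of all genes. The 5 were ADAMTS12 (1.89), ADAM9 (1.33), ADAMTS9 (1.33), ADAM12 (1.25) and ADAMTS6 (1.06). On the array labelled LacZ, ADAMTS12 (0.59), ADAM12 (1.69) and ADAMTS6 (1.81) lay near or below the array medians, so their sizes are not exact. The list median was 0.28. ADAMTS9 was lower on the array labelled mutant PIK3CA than on LacZ (-1.08), and ADAM15 was higher there than on the array labelled Her2 (1.07). In the plasminogen system, whose protease plasmin can activate MMP precursors, 7 of 9 listed genes were measured. PLAT, the tissue activator, was 1.69 higher on the array labelled Her2+mutant PIK3CA than on LacZ, and PLAU, the urokinase, 1.47 lower (-1.47), with a list median of -0.10 (all genes -0.03); they were the only ones of the 7 past 2-fold there. S100A10, a plasminogen-binding protein, was 1.03 higher there than on the array labelled Her2.

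Of 11 measured matrix substrates, FN1, LAMB3 and TNC differed at least 2-fold in some comparison. FN1, fibronectin, was highest on the array labelled Her2, as MMP2 was: it read 10.32 on the array labelled Her2+mutant PIK3CA, 9.09 on the array labelled mutant PIK3CA, 10.91 on the array labelled Her2 and 8.54 on the array labelled LacZ. LAMB3, a chain of the basement membrane laminin-332, was highest on the array labelled mutant PIK3CA, as MMP1 was: it read 6.94, 10.15, 8.19 and 8.61 on the arrays labelled Her2+mutant PIK3CA, mutant PIK3CA, Her2 and LacZ. TNC, tenascin C, was 1.19 lower (-1.19) on the array labelled Her2+mutant PIK3CA than on the array labelled mutant PIK3CA. The list medians against LacZ were -0.03, 0.07 and 0.00 for Her2+mutant PIK3CA, mutant PIK3CA and Her2.

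AP-1 and ETS factors, which are known to act on MMP promoters, were mixed on the array labelled mutant PIK3CA. As a list they were lower on the arrays labelled Her2+mutant PIK3CA and Her2. On the array labelled mutant PIK3CA, 1 of 12 was at least 2-fold higher than on LacZ and 3 were lower (2.71% and 1.91% of all genes), with a median of 0.18. The higher gene was FOSB (1.42) and the lower ones ETV4 (-1.38), JUNB (-1.31) and FOS (-1.05), of which FOSB and ETV4 were named after their values were seen. On the array labelled Her2+mutant PIK3CA, 0 were higher than on LacZ and 3 lower (6.3% and 4.27% of all genes), namely FOS (-1.38), JUNB (-1.35) and JUND (-1.30), with JUN at -0.11, ETS1 at -0.13 and FOSL1 at -0.33. The list median there was -0.64, against -0.03 over all genes. On the array labelled Her2, 0 were higher than on LacZ and 2 lower (1.92% and 1.75% of all genes). These were ETV4 (-1.49) and FOSL1 (-1.05), and the list median was -0.41, against -0.02 over all genes. Of 11 measured signals that can induce MMPs, IL1A, the cytokine interleukin-1 alpha, was highest on the array labelled mutant PIK3CA. It read 5.73 on the array labelled Her2+mutant PIK3CA, 7.08 on the array labelled mutant PIK3CA, 5.65 on the array labelled Her2 and 4.68 on the array labelled LacZ, an order in which the top array is that of MMP1. EREG (epiregulin) was also 1.10 above LacZ there, whereas TGFB1 was lower (-1.41). HBEGF was lower on the array labelled Her2+mutant PIK3CA than on LacZ (-2.43), and TGFB2 higher (1.31).

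Markers of other cell types moved on some arrays. Of 7 measured fibroblast markers, 2 were at least 2-fold higher on the array labelled Her2+mutant PIK3CA than on LacZ, against 6.3% of all genes. DCN (decorin) read 5.06 and LUM (lumican) 6.26 there, against 0.73 and 0.78 on the array labelled LacZ, while COL1A2 (0.84 and 0.87) and PDGFRB (0.82 and 0.86) lay near background on both. The summed linear level of the 7 was 149 on the array labelled Her2+mutant PIK3CA, 42.1 on the array labelled mutant PIK3CA, 75.0 on the array labelled Her2 and 35.0 on the array labelled LacZ. FAP was the only fibroblast marker at least 2-fold higher on the array labelled Her2 than on LacZ (1.57; 1.92% of all genes), beside MMP2 and MME. Of 6 leukocyte markers, PTPRC read 0.53 to 0.93 and ITGAM 0.66 to 0.88 on the 4 arrays. CD68 was higher on the arrays labelled Her2+mutant PIK3CA and mutant PIK3CA than on LacZ (2.10 and 1.56), and CD14 differed there by -0.97 and -0.81. The list medians of these differences were -0.02 and 0.20. On each, 1 of the 6 markers, CD68, was at least 2-fold higher, against 6.3% and 2.71% of all genes. The summed linear level of these 6 was 125, 94.5, 51.9 and 46.1 on the arrays labelled Her2+mutant PIK3CA, mutant PIK3CA, Her2 and LacZ. Of 3 endothelial markers, CDH5 and VWF read at most 1.10, and KDR was 1.80 lower (-1.80) on the array labelled mutant PIK3CA than on LacZ; the summed linear level was 31.0, 7.96, 15.5 and 18.2 in the same order of arrays. In bulk RNA, other proportions of cells and other RNA levels per cell cannot be told apart, and the part of these markers in the results was not tested.

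Genes outside the family with the most similar profiles were found by the Euclidean distance between their 3 differences from LacZ, among the 4381 genes that reached 5 on at least 1 array. For MMP1 the nearest was the small nucleolar RNA gene SNORA38B at a distance of 1.58, followed by EDN1 (endothelin 1) at 2.42. For MMP10 they were FGFBP1 at 0.32 and the oxytocin receptor OXTR at 0.35. MMP10 lay below the array medians on every array but that labelled mutant PIK3CA, so only its excess there can be compared. For MMP2 they were ABCA6 at 0.91 and the antisense gene HMGA2-AS1 at 1.14. For TIMP3, SCEL (sciellin, a precursor of the cornified envelope) was nearest at 0.40 and PLD5 next at 1.53. For MME they were PROS1 (protein S) at 0.31 and HLTF at 0.79. MMP1 thus had no close counterpart by this measure, which rests on 4 arrays that all share the same LacZ values. In part this follows from its difference of 5.98 on the array labelled mutant PIK3CA, the largest of all genes, and is no separate result.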

How the data were processed

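Total RNA of 4 MCF10A cell models was measured on 1 array each. The deposited values are log2 expression per probe set. The tools named are oligo and RMA, per the submitters' processing notes, and the log2 base follows from RMA and the range of the values. RMA corrects background, normalizes between arrays and combines probes. The sources used here give no tool versions and no array build. Symbols came from the platform annotation: 23871 of 53617 probe sets had 1 symbol, 1842 several and 27904 none, and 90 symbols were updated through the RefSeq table of GRCh38.p14. The probe set with the highest mean represented a gene. Differences were taken between arrays and counted at 2-fold (log2 difference of 1) with pandas 2.3.3, and checked on simulated data. Alternatives were filters at 5 and 7, quantile normalization and cyclic loess (3 iterations, limma 3.58.1), median centring, the mean of all probe sets and a 1.5-fold threshold. Levels of different genes were not compared. Named beside the members were list genes with a 2-fold difference in any comparison (for lists with over 6, the 3 highest and 3 lowest in Her2+mutant PIK3CA against LacZ), the neighbouring MMP genes, and the 2 most similar profiles of each member whose arrays span at least 2 log2 units. Marker genes were named as examples. Members, lists and rules were chosen with earlier results of these data known. The number of arrays limits the precision.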

Additional observations from a re-analysis of the deposited data

Results flagged for a closer look

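MMP3 and TIMP3 differed at least 2-fold in opposite directions with the same label, depending on the other label. For TIMP3 the Her2 label went with -2.04 in the presence of the mutant PIK3CA label and with 2.18 in its absence, which is a gap of -4.22 log2 units. For MMP3 the Her2 label went with -1.75 in the presence of the mutant PIK3CA label and with 1.07 in its absence, and the mutant PIK3CA label with -1.09 in the presence of the Her2 label and 1.73 in its absence, a gap of -2.81 either way. Each direction rests on 1 array per group, and the difference was not tested.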

How the results depend on the processing

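Of 33 differences of at least 2-fold among the members (departures included), 0 changed direction under the 3 other scalings or the mean of all probe sets. The filters and the 1.5-fold threshold leave each difference as it is, so no direction could change there. The filters at 5 and 7 keep 22 and 10 of the 33. All 33 stayed at least 2-fold under quantile normalization, cyclic loess and median centring, and these moved no member's difference by more than 0.16. RMA had already normalized the deposited values between arrays, and median centring shifts all genes of an array alike. These 3 scalings are therefore a weak check of differences of 2-fold or more. Quantile normalization added the departure of MMP14, and median centring added MMP9 in Her2+mutant PIK3CA against LacZ. The mean of all probe sets ended 3 of them, all of MMP2, whose second probe set lies near background. They were mutant PIK3CA against LacZ, Her2+mutant PIK3CA against mutant PIK3CA, and the departure from additivity. That mean brought the MMP2 difference to -1.99 for mutant PIK3CA against Her2 and 1.43 for Her2 against LacZ. Filters act by leaving members out, and a member passes through its highest array. MMP1 passes both filters only through the array labelled mutant PIK3CA (7.27). MMP2 passes the filter at 5 only through the array labelled Her2 (6.78). Their differences that involve those arrays therefore gain no separate support from the filters. The filter at 5 keeps 6 members and lowers the count of members at least 2-fold different to 3 for mutant PIK3CA against LacZ, to 3 for Her2 against LacZ and to 3 for additivity, against 5 in each with all members. The filter at 7 keeps 4 members, with counts of 1 for Her2+mutant PIK3CA against LacZ (3 with all members), 1 for mutant PIK3CA against LacZ, 1 for Her2 against LacZ, 2 for Her2+mutant PIK3CA against mutant PIK3CA (6 with all members), 1 for Her2+mutant PIK3CA against Her2 (3), 3 for mutant PIK3CA against Her2 (6) and 1 for additivity. A 1.5-fold threshold gave 7 members for Her2+mutant PIK3CA against LacZ and 5 for Her2+mutant PIK3CA against Her2. The share of all genes past 1.5-fold was not taken, so these counts cannot be set against a background. No paired analysis was possible because each group has 1 array. Values near the array medians limit MMP9, MMP10, the low arrays of MMP1 and the LacZ array of MMP14.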
